A study of Mus musculus with 2 samples.

Results

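Natural killer (NK) and innate lymphoid cells were examined among sorted CD64+ cells from mouse thymus, where T cells develop. They were picked by their own transcripts. A cell was a member when the genes Nkg7, Klrb1c, Ncr1 and Klre1 together gave at least 3 UMIs (unique molecular identifiers, which count captured transcripts), the CD3 genes Cd3d, Cd3e and Cd3g together fewer than 2, and the complement genes C1qa, C1qb and C1qc together fewer than 3. Of 3188 kept cells, 295 met the rule, a share of 9.25% (exact binomial 95% interval 8.27 to 10.3%).

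The study made 10x Genomics 3′ single-cell RNA libraries from thymus of adult C57BL/6 mice, one from 2021 and one from 2024, after enzymatic digestion and flow sorting on surface CD64. No genetic change, treatment or sex is given, and both libraries form 1 group. The 2021 library held 3214 barcodes and 8534578 UMIs, with a median of 2157.5 UMIs and 886 genes a barcode, and all gene values below come from it. The 2024 library (2815 barcodes, 24569270 UMIs, a median of 5312 UMIs and 2389 genes) was used for depth only, so no value below has a replicate check and no test between samples was possible. Intervals are exact at the 95% level and cover counting error only.

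NK cells are lymphocytes that kill infected or transformed cells with granules holding granzymes and perforin, and that secrete interferon gamma and chemokines. Whether a target is killed is set by the balance of activating and inhibitory surface receptors, many of which recognise MHC class I molecules. The other innate lymphoid cells (ILCs) also lack rearranged antigen receptors and are grouped by their cytokines into ILC1, ILC2 and ILC3. A small NK population is known to develop within the thymus, with Gata3 and the interleukin 7 receptor, besides the NK cells that circulate in blood.

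The marker check went partly against the label. Gzma and Xcl1, the markers that the rule did not use, gave 9673 and 585 CPM in the members, which is a gene's UMIs for each 1000000 UMIs that those cells gave in all. They gave 92.4 and 4.96 CPM in the 2893 other kept cells. Genes that define helper ILCs were mostly at or near 0, as described below. Because the rule chose cells by NK genes, this does not show whether helper ILCs were present among the kept cells. In addition, 17 of the 295 members carried granulocyte genes, and these 17 cells held 33.0% of all member UMIs. They are called granulocyte-gene members here and the other 278 NK-gene members. A member was put among the 17 when the neutrophil granule genes S100a8, S100a9, Camp, Ngp, Ltf and Lcn2, or the genes Prg2, Prg3, Prss34 and Mcpt8, made up at least 1% of its UMIs. This division was made after the values were seen, so the levels of these genes in either set follow from it, and every main count is given for both sets.

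The granulocyte-gene members had a median of 8545 UMIs (2106 to 18653), against 951 (503 to 5282) in the NK-gene members and 2345 in the other kept cells. In 16 of the 17, the neutrophil granule genes made up 9.24 to 57.3% of a cell's UMIs. The highest share in an NK-gene member was 0.585%, so no cell lay near the limit of 1% that divides the sets. The remaining one had 371 UMIs of Prg2, 74 of Prss34, 48 of Mcpt8 and 46 of Prg3, which are granule genes of eosinophils, basophils and mast cells. Of these cells, 15 had entered through Nkg7 alone, with no UMI of Klrb1c, Ncr1 or Klre1, and 14 had a UMI of Elane, Mpo, Prtn3 or Ms4a3, genes of granulocyte precursors. None of the 278 NK-gene members had one. Gzma, Ccl5 or both were detected in all 278, with 4 to 160 UMIs of the pair per cell and a median of 41, and both were at 0 in 15 of the 17. The other 2 granulocyte-gene members combined 26 and 78 UMIs of that pair with neutrophil granule shares of 18.4 and 21.7%. Counts of the pair are raw UMIs and are not scaled to depth. The deepest NK-gene member, with 5282 UMIs, had only 2 of Gzma and 3 of Ccl5. It also held 84 UMIs of Cd74, the MHC class II invariant chain, the most of any NK-gene member. A few UMIs of the pair in a deep cell therefore do not show that it is an NK cell.

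**Figure D1:**
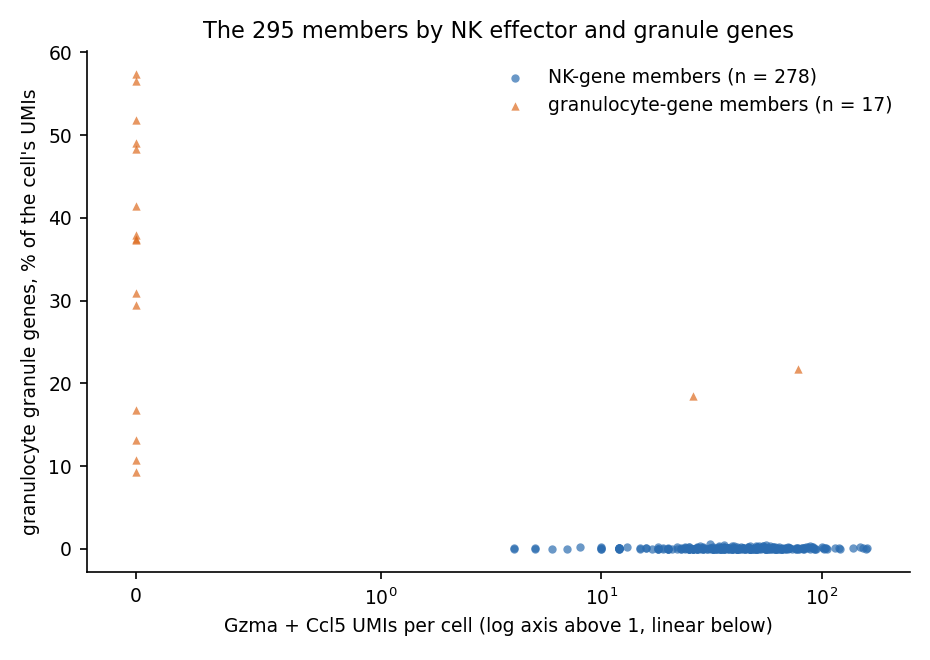
Each point is 1 member. The horizontal axis gives its UMIs of Gzma and Ccl5 together (log above 1) and the vertical axis the percent of its UMIs from granule genes of neutrophils, eosinophils and basophils; the 278 NK-gene members (circles) lie along the bottom with 4 to 160 UMIs of the pair, while 15 of the 17 granulocyte-gene members (triangles) stand at 0 on the horizontal axis.

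Promoters of Gzma and of Nkg7, the gate gene that admitted both kinds of cell, are shown beside that of Elane, the neutrophil elastase gene that was absent from the NK-gene members. Each is the RefSeq sequence of the 250 bases before the annotated start (build GRCm38.p6, equivalent to the mm10 named in the submitters' processing notes), written 5′ to 3′ on the gene's strand. They lie at chr13:113100982-113101231 (minus strand) for Gzma, chr7:43436888-43437137 (plus) for Nkg7 and chr10:79886062-79886311 (plus) for Elane. Capitals mark matches on either strand to a T-box half-site (TCACAC or GTGTGA), a Runx motif (TGTGGT or ACCACA) and an Ets motif (AGGAAG or CTTCCT), motifs of factor families active in NK cells.
Gzma: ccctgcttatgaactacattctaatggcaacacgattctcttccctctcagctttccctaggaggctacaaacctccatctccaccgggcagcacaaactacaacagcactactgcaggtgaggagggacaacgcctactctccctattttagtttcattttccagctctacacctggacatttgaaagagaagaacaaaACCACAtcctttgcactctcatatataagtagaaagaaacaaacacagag
Nkg7: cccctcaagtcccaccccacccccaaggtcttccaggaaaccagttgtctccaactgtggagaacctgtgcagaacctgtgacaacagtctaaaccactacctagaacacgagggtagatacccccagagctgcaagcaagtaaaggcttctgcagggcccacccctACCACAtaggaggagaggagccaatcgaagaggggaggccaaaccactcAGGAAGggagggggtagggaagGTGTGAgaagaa
Elane: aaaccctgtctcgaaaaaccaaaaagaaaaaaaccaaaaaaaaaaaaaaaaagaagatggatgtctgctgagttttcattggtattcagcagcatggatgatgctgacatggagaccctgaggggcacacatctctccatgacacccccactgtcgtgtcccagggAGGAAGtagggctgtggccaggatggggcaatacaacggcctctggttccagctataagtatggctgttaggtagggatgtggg

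The Gzma promoter had 1 Runx match, the Nkg7 promoter 1 match of each motif, and the Elane promoter 1 Ets match. Over all 27025 promoters of this length, 12.2% held the T-box half-site, 14.2% the Runx motif and 29.2% the Ets motif. Of the 20 named genes that both member sets share (below), 17 had a promoter in the table, and 2, 7 and 9 of these held the motifs in that order. A match is a run of letters and not a measured site.

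The rule's own genes describe how the members were chosen. Nkg7, a granule membrane gene, gave 3720 CPM in members and was found in 292 of 295 cells. Klre1, Klrb1c (NK1.1) and Ncr1 (NKp46), all surface receptors, were found in 180, 133 and 139 members. At the edge of the rule, the 28 members with exactly 3 NK-gene UMIs had 3085 CPM of Gzma (22 of 28 cells) at a median of 1017 UMIs. The 19 cells just outside with 2 had 754 CPM (7 of 19 cells) at a median of 4438 UMIs. Granulocyte genes reached the 1% limit in 3 of the 28 members and 7 of the 19 cells outside. These cells were not separated here, so the 2 Gzma levels also differ in granulocyte content. The CD3 limit left out 16 cells with enough NK genes, and the C1q limit another 19. These excluded cells still held 3840 and 3571 CPM of Gzma, and together 437 of the 745 Gzma UMIs found outside the members. The limits are on raw UMIs, so they act differently on deep and on shallow cells.

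Counts were summed over cells and compared by ratio. A gene counted as higher or lower when its log2 ratio reached 1 in size. Because the members were chosen from these same counts, these numbers are a description and not a test. Of 5641 genes compared between members and other kept cells, 473 (8.39%) were higher and 1062 (18.8%) were lower, and the median log2 ratio of all genes was −0.16. For the 278 NK-gene members the counts were 815 (13.9%) and 1144 (19.5%) of 5875 genes, with a median of 0.03.

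The 25 genes with the highest ratios in all members fell into a larger and a smaller group. For 20 of them the NK-gene members also had them among their 25 highest. For the other 5, Prg2, Prss34, Mpo, Prg3 and Elane, every member UMI came from granulocyte-gene members. Prg2 gave 823 CPM in all members and 0 in the NK-gene members, and Elane 1778 and 0. The 20 shared genes were Samd3, Adamts14, Fasl, Klra7, Klrb1a, Klra1, Xcl1, Klra4, Gzma, Cma1, Prf1, Klra9, Klra8, Klrc1, Klra3, Il2rb, Ctla2b, Klrc2, Klrg1 and Khdc1a. Their log2 ratios against the other kept cells ran from 6.02 (Khdc1a) to 9.40 (Samd3) in all members and from 6.59 to 9.98 in the NK-gene members. Samd3 rested on 1 UMI in the other cells (interval 6.84 to 14.7), while Gzma, with 4384 and 745 UMIs, was measured most closely at 6.71 (6.60 to 6.82).

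**Figure D2:**
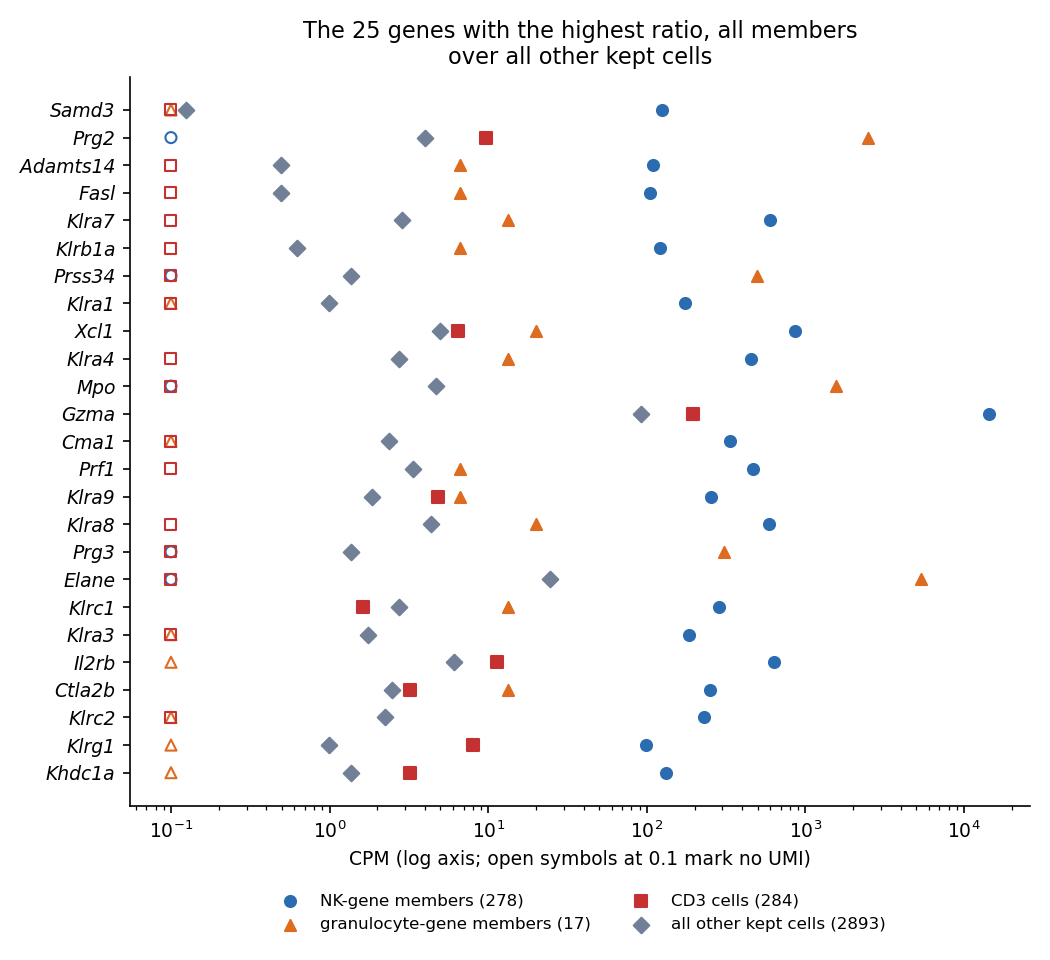
Levels of the 25 named genes with the highest ratios, in CPM on a log axis, in NK-gene members (circles), granulocyte-gene members (triangles), CD3 cells (squares, defined below) and all other kept cells (diamonds); open symbols mark 0 UMIs. The circles stand far right of the diamonds except for Prg2, Prss34, Mpo, Prg3 and Elane, where the circles are open and the triangles stand right.

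Several of the named genes lie close together in the genome, and no background over all compared genes was taken. All 10 of the lectin-like Klr genes among them are on chromosome 6 in the RefSeq annotation of GRCm38.p6, and 9 of the 10 lie between positions 128609227 and 130386874, a stretch of 1777648 bases known as the NK gene complex. Klrg1 is outside it, and the gate genes Klrb1c and Klre1, which helped choose the cells, lie within it. The 6 Ly49 genes among the named genes span 343145 bases, from 130043730 to 130386874. Adamts14, a secreted protease gene, ends 24332 bases before the start of the perforin gene Prf1 on chromosome 10. The gene names are those of the deposited table, and overlapping reads of neighbouring genes were not examined.

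Cytotoxic granule genes took 1.27% of the UMIs of all members and 1.80% of those of NK-gene members, against 0.161% in the other kept cells. Of 16 listed genes, 13 were compared, 7 were higher and 2 lower in all members, and 9 were higher and 1 lower in the NK-gene members, with a median log2 ratio of 2.24. The values in the next sentences, unless stated otherwise, are for the 278 NK-gene members.

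Gzma, a serine protease of the granule, gave 14339 CPM against 92.4 in the other kept cells, a log2 ratio of 7.28 (7.17 to 7.39). Per cell it ran from 0 to 49 UMIs with a median of 14.5, and 271 of 278 cells had it. Gzmb, the granzyme that activates caspases, reached 540 CPM against 7.44 (log2 ratio 6.18) in 99 cells. Prf1, the pore-forming protein, reached 464 CPM against 3.35 (7.12) in 103 cells. At this depth Gzma was thus found in nearly every NK-gene member, and Gzmb and Prf1 in fewer cells.

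Ctsw, a protease of cytotoxic lymphocytes, gave 800 CPM against 10.4 (6.26). The granzyme inhibitor genes Serpinb9 and Serpinb9b gave 201 and 65.9 CPM, with log2 ratios of 3.23 and 6.25. Gzmc had 8 UMIs, all in 1 cell, and Gzmk and Gzmm had 2 each. Srgn, the proteoglycan core that many leukocyte granules share, stayed near the other cells at 570 against 727 CPM (−0.35), and the lysosomal gene Lamp1 was lower (−1.48).

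Since deep cells show more genes, shares of cells with a UMI were also taken after each cell was thinned to 1000 UMIs. That left out 150 shallower NK-gene members and kept 128. Gzma was then found in 96.9% of NK-gene members (92.2 to 99.1%; 97.5% without thinning), 7.19% of CD3 cells and 0.281% of granulocyte-gene cells. The CD3 cells are 284 kept cells with at least 2 CD3 UMIs and too few NK or C1q genes for those gates (median 1248.5 UMIs). The granulocyte-gene cells are 447 kept cells outside all gates (median 1809 UMIs). They serve as a low reference for the background of free RNA, which was not itself measured. Thinned Gzma was found in more of the cells with C1q genes (2.01%) and of all other kept cells (2.52%). Prf1 was found in 28.9% of thinned NK-gene members, Xcl1 in 37.5% and Ifng in 12.5%.

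Chemokine and cytokine genes of NK cells made up 2.22% of the UMIs of all members and 3.28% of those of NK-gene members, against 0.106% in the other kept cells. Of 11 listed genes 8 were compared, and 6 were higher and 1 lower in either set. Ccl5 (RANTES), which attracts T cells and monocytes, was the largest of these at 28586 CPM against 478, a log2 ratio of 5.90. It was found in 277 of 278 cells, with 0 to 127 UMIs and a median of 26. Ccl4 reached 2302 CPM against 254 (3.18) and Ccl3 612 against 127 (2.26).

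The 10 cells with most UMIs of a gene held 11.4% of those of Ccl5, 33.3% of Ccl4, 47.8% of Ccl3 and 48.9% of Xcl1. Ccl4 was found in 144 of the 278 cells, with a median of 1 UMI and at most 64. Xcl1, a chemokine for cross-presenting dendritic cells, gave 863 CPM in 90 cells, and a single cell held 29 of its 262 UMIs. Ifng, encoding interferon gamma, gave 204 CPM against 2.48 (6.36) in 51 cells. Tnf had 2 UMIs and Csf2 none, while lymphotoxin beta, Ltb, gave 168 against 151 CPM (0.15).

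Ly49 receptors are a family of lectin-like receptors that bind MHC class I and are expressed by overlapping subsets of mouse NK cells. Of 10 listed Klra genes 7 were compared, 6 were higher and 1 lower, in both member sets. The reads of these near-identical genes could be divided among them by the authors' counting in ways that these data cannot show, so values for single Klra genes are uncertain. The inhibitory receptor gene Klra7 (Ly49G) was found in 110 NK-gene members (39.6%, 33.8 to 45.6%). Klra8 (Ly49H), an activating receptor for a cytomegalovirus protein, was found in 92 (33.1%), and the activating Klra4 (Ly49D) in 80 (28.8%). The inhibitory Klra9, Klra3 and Klra1 followed with 59, 38 and 32 cells. In this order the intervals of each pair of neighbours overlap.

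Klra2 had 3 UMIs in 2 cells and was lower than in the other kept cells (9.88 against 38.3 CPM, log2 ratio −1.96), with 41.8 CPM in granulocyte-gene cells. Klra6 had 1 UMI, and Klra5 and Klra10 had none, where 0 counts allow up to 12.1 CPM. After thinning to 1000 UMIs, a Ly49 UMI was found in 105 of 145 members (72.4%, 64.4 to 79.5%) and 104 of 128 NK-gene members (81.3%, 73.4 to 87.6%). Without thinning the shares were 78.6% and 82.4%. CD3 cells stood at 0.599%, and granulocyte-gene and C1q cells (346 kept cells with C1q genes) at 5.06 and 5.02%.

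NK-gene members held different numbers of Ly49 genes. No Ly49 gene was detected in 49 cells, 1 in 102, 2 in 82, 3 in 32 and 4 in 13. Activating genes (Klra4 or Klra8) without an inhibitory one were found in 44 cells, inhibitory genes alone in 87, both in 97 and neither in 50. Since most of these genes have few UMIs per cell, a gene that is missing from a cell may only be below detection.

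**Figure D3:**
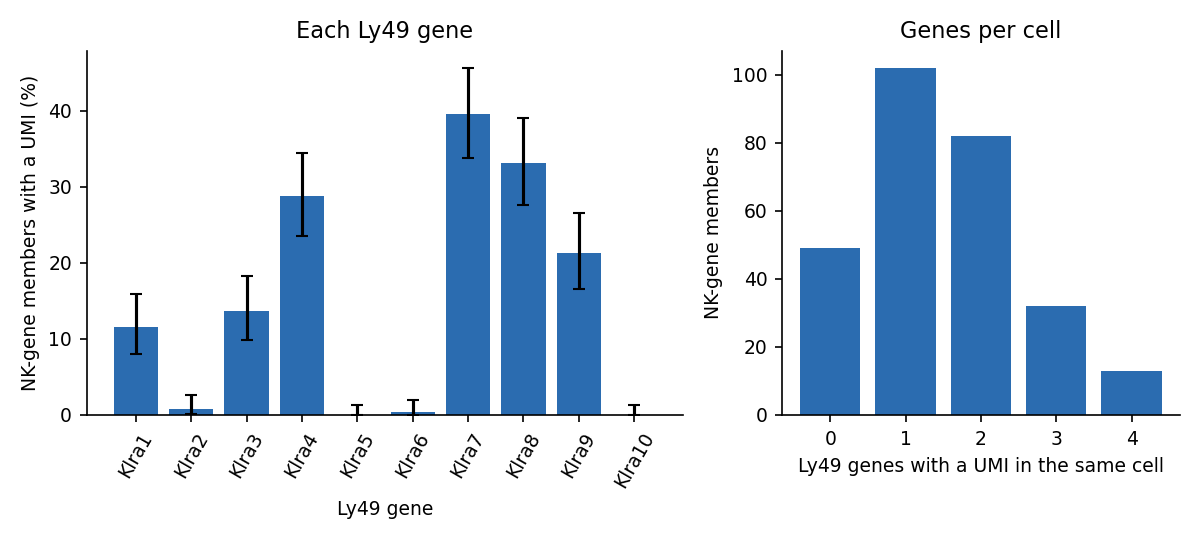
Left, the percent of the 278 NK-gene members with at least 1 UMI of each Klra gene, with exact 95% intervals. Right, the number of NK-gene members by how many distinct Klra genes they held, from 49 cells with none to 13 with 4.

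Among the other NK receptors, 14 of 23 listed genes were compared in all members and 16 in NK-gene members, of which 13 and 15 were higher and none lower. Klrd1 (CD94), which pairs with NKG2 chains, gave 2246 CPM against 215 (3.38) in 229 of 278 cells. Its partners Klrc1 (NKG2A, inhibitory) and Klrc2 (NKG2C) gave 286 and 230 CPM, with log2 ratios of 6.71 and 6.69. Klrk1 (NKG2D), a receptor for stress-induced ligands, gave 553 CPM against 22.1 (4.65). Fas ligand, Fasl, a death ligand, gave 105 against 0.50 CPM (7.73), and Cd160 gave 56.0 against 0.87 (6.01). Slamf6 and Tigit had no UMI.

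Signalling adaptors and kinases pass on signals from these receptors. Of 18 listed genes 16 were compared, with 7 higher in all members, 10 in NK-gene members and none lower. Hcst (DAP10), the adaptor of NKG2D, gave 1264 against 114 CPM (3.47), and the kinase genes Zap70 and Txk gave log2 ratios of 3.11 and 4.63. Fcer1g and Tyrobp (DAP12), adaptors that macrophages and granulocytes also use, gave 5080 against 2133 CPM (1.25) and 5383 against 2777 (0.95). Lat, an adaptor of the T cell receptor, gave 105 against 61.5 CPM (0.78), with 591 in CD3 cells.

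Of 19 NK transcription factor genes 16 were compared, with 9 higher and 2 lower in all members and 10 higher and 1 lower in NK-gene members. The T-box factors that direct NK cell identity were sparse. Eomes gave 112 against 1.36 CPM (6.36) from 34 UMIs in 31 cells, and Tbx21 (T-bet) 79.0 against 1.12 (6.15) in 24 cells. Id2, which blocks B and T cell fates, gave 645 against 156 (2.05), Runx3 254 against 85.9 (1.56) and Ikzf3 132 against 18.5 (2.83). Tcf7 gave 72.4 CPM, below the 970 of CD3 cells (−3.74). Zfp683 and Zbtb16 had no UMI.

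Cytokine receptors tie NK cells to growth and activating factors. Of 14 listed genes 10 were compared, with 6 higher and 1 lower in all members and 6 higher and none lower in NK-gene members. Il2rb, the shared chain for interleukins 2 and 15, gave 635 against 6.08 CPM (6.71) in 135 cells. The interleukin 18 receptor genes Il18r1 and Il18rap gave 204 and 184 CPM, with log2 ratios of 5.33 and 4.01, and Il12rb2 had a ratio of 3.11. Il7r, the interleukin 7 receptor, had 6 UMIs in NK-gene members, 19.8 against 18.2 CPM (0.12). Il2ra had none.

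Genes of mature circulating NK cells and genes of immature or thymic NK cells were set side by side. Of 14 mature genes all 14 were compared, and 8 were higher and 1 lower in all members, 9 higher and none lower in NK-gene members, with a median log2 ratio of 1.80. Cma1, a chymase gene, gave 336 CPM (7.16), the egress receptor S1pr5 65.9 against 5.70 (3.53), Klf2, a factor for recirculation, 1396 against 452 (1.63), and Klrg1 98.8 against 0.99 (6.64). Itgam (CD11b) gave 178 against 96.1 (0.89).

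Of 14 immature or thymic genes, 10 were compared in all members and 11 in NK-gene members, where 3 were higher and 1 lower and 6 were higher and none lower, with a median of 1.02 in the latter. Ctla2a gave 938 against 13.5 CPM (6.12), Cd27 92.2 against 26.7 (1.79) and Gata3 42.8 against 11.5 (1.89), with 96.8 CPM of Gata3 in CD3 cells. Thy1 (−0.10) and Ltb (0.15) stayed near the other cells, and Kit had 6 UMIs. No test compared the 2 lists.

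Homing and adhesion genes were mixed. Of 21 listed genes, 17 were compared in all members (6 higher, 3 lower) and 18 in NK-gene members (10 higher, 2 lower). The integrin genes Itga4 and Itgb1 had log2 ratios of 1.87 and 1.85. Ccr7, which guides cells to lymph nodes, was lower at 3.29 against 88.9 CPM (−4.76). Cxcr6 and Itgae, found on tissue-resident lymphocytes, had no UMI.

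Markers of helper ILCs were scarce. Of 12 ILC1 genes 4 were compared, none was higher and 3 were lower in either set. Of 13 ILC2 genes only Gata3 was compared, and it was higher. Il1rl1, Il5, Il13, Areg and Rora had no UMI in NK-gene members. Of 13 genes of ILC3 and lymphoid tissue inducer cells 2 were compared, none higher and 1 lower, and Il23r, Il22, Il17a and Il1r1 had no UMI. In 303715 UMIs, 0 counts allow up to 12.1 CPM, so at this depth rare ILCs among the members were not detectable. The rule also required at least 3 UMIs of Nkg7, Klrb1c, Ncr1 and Klre1 together. An ILC with fewer could not be a member at any depth, so these values do not measure ILCs among the kept cells.

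**Figure D4:**
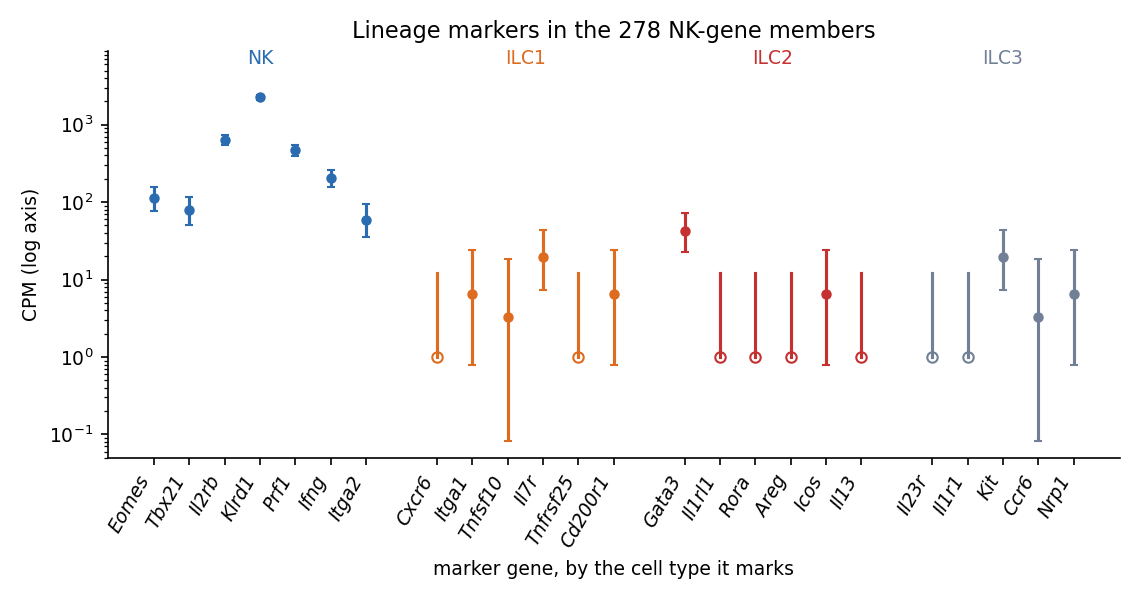
Levels of marker genes of NK cells, ILC1, ILC2 and ILC3 in the 278 NK-gene members, in CPM on a log axis with exact 95% intervals; an open circle, placed at 1 since a log axis has no 0, marks a gene with no UMI, and its line ends at the upper limit of 12.1. The NK genes run from 59.3 (Itga2) to 2246 (Klrd1), and no ILC gene exceeds the 42.8 of Gata3.

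The cells had been sorted on CD64, the high-affinity IgG receptor encoded by Fcgr1. NK-gene members had 1 Fcgr1 UMI, 3.29 CPM (0.0834 to 18.3), against 32.9 in the other kept cells, 94.99 in C1q cells, 4.54 in granulocyte-gene cells and 3.23 in CD3 cells. Fcgr3 (CD16), the Fc receptor through which NK cells kill antibody-coated targets, had 12 UMIs, 39.5 against 72.2 CPM. Fcgr4 had none, and the inhibitory Fcgr2b was lower (−2.39). Of 7 Fc receptor genes 6 were compared, with 4 lower in either set and none and 1 higher, the latter being Fcer1g. Surface protein was not in these data, and how these cells came into the gate was not tested.

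Antigen presentation genes were taken as MHC class II and class I lists. All 7 MHC class II genes were lower in either set. H2-Eb1 gave 335 CPM in members against 5369 (−4.00, −4.24 to −3.77), and Cd74, the invariant chain, had a ratio of −3.15 in NK-gene members, where 10 cells held 83.8% of its UMIs. The 10 named genes with the lowest ratios in all members were Cd209a, Tmem176a, Tmem176b, H2-Eb1, Mmp9, Ifi30, H2-Ab1, Fabp5, H2-Aa and Ms4a6c, from −5.12 (Cd209a, 6.62 against 229 CPM) to −3.54, and all 10 were also lower in the NK-gene members (−5.21 to −3.08). Of 14 MHC class I genes 13 were compared, none was lower, and 2 were higher in all members and 3 in NK-gene members, H2-Q6 (2.43), H2-Q7 (1.99) and H2-K1 (1.13).

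Markers of other cell types were taken as whole lists. Neutrophil markers took 11.3% of the UMIs of all members but 0.0668% of those of the NK-gene members, against 6.42% in the other kept cells. Of 14 macrophage genes 11 were compared and all 11 were lower in either set, and in NK-gene members Mertk, Timd4, Cd5l, Slc40a1 and Spic were at 0. Dendritic cell genes were lower in 9 of 10 compared and B lineage genes in 6 of 7 (7 of 7 in NK-gene members). Of 13 neutrophil genes, 2 were higher and 6 lower in all members, and all 12 compared were lower in NK-gene members, which had been chosen for low levels of such genes. S100a8 had a log2 ratio of 0.80 in all members and −6.89 in NK-gene members. Type I interferon response genes were lower in 13 of 17 compared, and in 10 of 17 in NK-gene members, with Isg15 at 52.7 against 424 CPM (−3.01).

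CD3 cells were the kept cells most like the members in being lymphocytes. Of 5790 genes compared, 459 (7.93%) were higher and 1908 (33.0%) lower in members, with a median log2 ratio of −0.59 over all genes. With median-of-ratios scaling, which sets that median to 0, the counts were 944 and 963. The NK-gene members gave 515 higher (9.31%) and 1603 lower (29.0%) of 5530, with a median of −0.42. Ratios below are scaled to total UMIs and are to be read against these medians.

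Granulocyte, chemokine and receptor genes made up most of the 15 highest. Prtn3 was first (10.23, 7.75 to 15.5), with 1 UMI in CD3 cells, and Elane, with none there, had a ratio of at least 8.52. Ccl3 gave 415 CPM in members and 1.61 in CD3 cells (8.01, 5.51 to 13.3), Klrk1 371 and 1.61 (7.84) and Ccl5 19322 and 127 (7.24, 6.92 to 7.58). Klrc1 (6.93), Xcl1 (6.50) and Spry2 (6.14) were also among the 15 highest. Klra7 and Klra8 had no UMI in CD3 cells, and setting these to 3 counts over the group gives log2 ratios of at least 6.39 and 6.37. In all, 7 of the 15, Prtn3, Elane, Mpo, Prg2, Fcnb, Ms4a3 and Mcpt8, had no UMI in the NK-gene members. In NK-gene members alone, mature NK genes were higher in 12 of 13 compared and immature or thymic genes in 1 of 10, with 6 lower. The immature or thymic list took 0.282% of UMIs in CD3 cells and 0.168% in NK-gene members, so CD3 cells carried such transcripts themselves. Against all other kept cells, 6 of 11 of these genes were higher and none lower. The counts against CD3 cells therefore do not show how mature the members were.

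The 15 lowest genes included several of developing T cells. Cd8b1 gave 2.21 against 750 CPM (−8.41), Cd8a −7.06, and Bcl11b, the factor of T lineage commitment, −6.77. The receptor recombination genes Dntt and Rag1 had ratios of −5.42 and −5.31. All 21 thymocyte-restricted genes were lower in NK-gene members, with a median of −4.40. So were all 25 cell cycle genes compared, with a median of −4.31. Over all 5530 genes compared, 29.0% were lower. CD3 cells were chosen for CD3 genes and the members for few of them. Lower levels of other T cell genes in members are therefore partly set by the choice of cells. Cell cycle genes took 0.0270% of the UMIs of NK-gene members (82 UMIs) and 0.536% of those of CD3 cells. In granulocyte-gene members they took 0.205%, and these 17 cells held 307 of the 389 cell cycle UMIs of all members.

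Genes that T and NK cells share were also taken as a list. The list of 19 such genes took 0.495% of UMIs in NK-gene members, 0.555% in CD3 cells and 0.0452% in C1q cells. Against all other kept cells, 14 of 19 were higher and 1 lower in all members and 15 higher and none lower in NK-gene members. Cd2 gave 323 against 29.0 CPM (3.48), Ptprcap 882 against 94.2 (3.23) and Lck 224 against 54.9 (2.03), with 462 CPM of Lck in CD3 cells.

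Thymocytes surround all other cells of the thymus, and thymocyte transcripts in the members were measured as a share. The thymocyte-restricted genes gave 116 member UMIs, 0.0256% (0.0211 to 0.0307%), and 108 in NK-gene members, 0.0356% (0.0292 to 0.0429%). CD3 cells had 0.597%, C1q cells 0.0196%, granulocyte-gene cells 0.00708%, and the 16 cells that passed the NK limit but had CD3 genes 0.322%. As a share of UMIs, the NK-gene members were thus above C1q and granulocyte-gene cells and far below CD3 cells. At least 1 such UMI was found in 28.8% of NK-gene members (median 951 UMIs) and 28.9% of C1q cells (median 2639.5). It was found in 11.6% of granulocyte-gene cells and 94.7% of CD3 cells. The rule limited CD3 genes in members, and CD3 cells were required to have them. The gap to CD3 cells is therefore partly set by the choice of cells.

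A single gene carried much of the thymocyte-restricted share in members. Satb1, a chromatin organiser of T cells, gave 61 of the 116 UMIs, and 55 of those in NK-gene members, spread over 46 cells. Without it, NK-gene members had 0.0175% (0.0131 to 0.0228%), which overlaps the 0.0161% of C1q cells and lies above the 0.00318% of granulocyte-gene cells. Of the 295 members, 211 had no thymocyte-restricted UMI, 68 had 1 and 13 had 2. A single member had 15, among them 5 of Rag1, 2 of Dntt, 3 of Satb1 and 2 of Ccr9, together with 9 UMIs of Gzma, 42 of Ccl5 and 4 of Trbc2. Without it the share was 0.0224% (0.0182 to 0.0272%).

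Transcripts of the T cell receptor beta constant genes were more widespread than that list. Trbc1 and Trbc2 gave 231 UMIs, 0.0761% (0.0666 to 0.0865%), in 133 of 278 NK-gene members. C1q cells had 0.00424%, granulocyte-gene cells 0.00182% and CD3 cells 0.586%. In the 271 NK-gene members with no CD3 UMI the share was 0.0757%. After thinning, Trbc1 was found in 26.6% of NK-gene members, 49.1% of CD3 cells and 0.281% of granulocyte-gene cells, and Trbc2 in 23.4%, 82.0% and 0.843%. In thinned C1q cells Trbc1 was found in 1.67% and Trbc2 in 1.34%. The alpha constant gene Trac had 8 UMIs and was not higher than in other kept cells (−0.75). Reads at the 3′ end do not show whether a transcript holds a rearranged receptor.

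**Figure D5:**
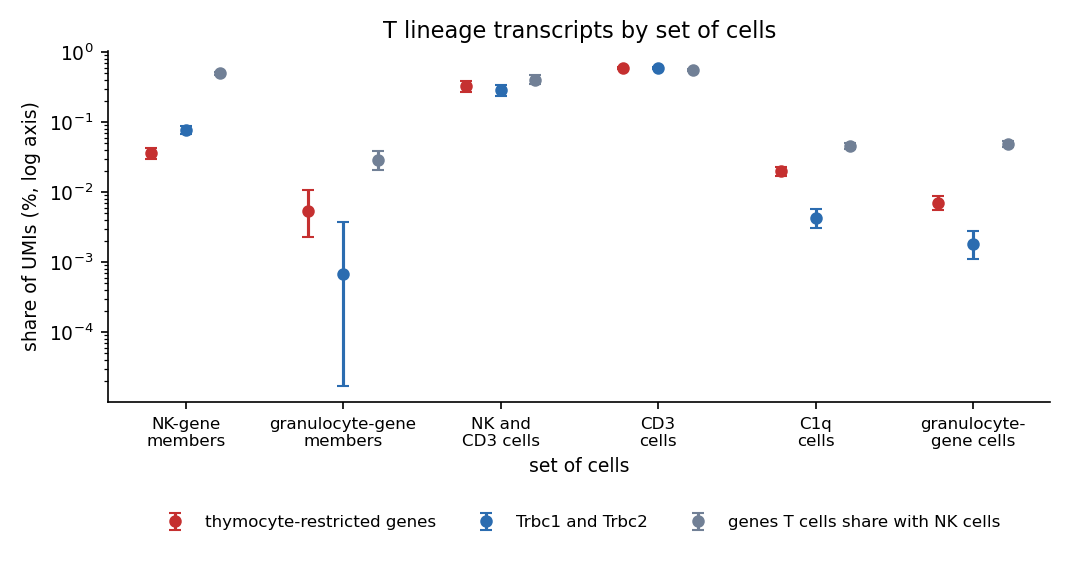
Percent of UMIs (log axis, exact 95% intervals) from thymocyte-restricted genes, from Trbc1 and Trbc2, and from genes that T cells share with NK cells, in 6 sets of cells. NK-gene members stand at 0.0356%, 0.0761% and 0.495%, CD3 cells at 0.597%, 0.586% and 0.555%, and C1q cells at 0.0196%, 0.00424% and 0.0452%.

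Differences within the members were looked for by splitting the NK-gene members on Ly49 genes, which are then left out. After thinning to 1000 UMIs for the classification, 104 had a Ly49 UMI and 24 had none. Of 1121 genes compared on the full counts of these cells, 107 (9.55%) were higher and 53 (4.73%) lower with Ly49. Ccl4 was at 2064 CPM with and 3004 without a Ly49 UMI (−0.54, −0.86 to −0.21), and at −0.84 (−1.09 to −0.58) for all 229 and 49 cells unthinned. The 24 cells without gave 106 Ccl4 UMIs from 12 cells, and 1 NK-gene member held 64 of all 699. A few cells can therefore set this ratio, and the intervals count UMIs and not cells. Ccl5 had a ratio of 0.55 (0.43 to 0.67) thinned and 0.11 unthinned. Gzma had 0.38 (0.20 to 0.55) thinned and −0.09 (−0.21 to 0.03) unthinned, so its difference was not seen in the larger set. Ifng had −0.30 (−1.79 to 1.50) and −1.30 (−2.11 to −0.44). Of these 4 genes only Ifng reached a log2 ratio of 1 in size, and only unthinned.

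The genes that moved most with the Ly49 split had few UMIs. Fgfr1op2, Hsbp1, Slirp, Hist1h2ae and Hist1h2ap were highest with Ly49, and Plac8, Cxcl2, Ppp3ca, Il1b and Xrn2 lowest. Plac8 turned round between the thinned cells (−3.32, from 34 UMIs) and all cells (2.65), so these names are a list by rule and not a stable difference.

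A split on thymocyte-restricted UMIs set 14 NK-gene members with at least 2 against 198 with none. Of 1397 genes compared, 123 were higher and 153 lower in the former. Tcf7 (3.06, 1.29 to 4.71) and Thy1 (2.19) were higher there, and Ccl4 (−1.97, −3.04 to −1.08), Gzma (−0.50) and Ccl5 (−0.44) lay lower. These 14 cells were chosen for thymocyte transcripts, so higher levels of other T lineage genes are not independent of that choice. With 14 cells on one side, a few cells can set these ratios, and the intervals count UMIs and not cells. The genes with the highest ratios were Apoe, Ppp1cb, Ltb, Chsy1 and Zfp36l1, and those with the lowest Rbm3, Set, Slc38a2, Chmp4b and Klra9. Splits on Il7r (3 cells after thinning) and on a cell cycle share of at least 0.5% (1 cell) were too small to compare.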

How the data were processed

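Both deposited matrices hold unnormalized counts of UMIs for every gene in every barcode, made by the authors with Cell Ranger 6.0.0 (2021) and 8.0.0 (2024) per the file headers. The submitters' processing notes name mm10. The 3′ chemistry reads transcript ends, and free RNA can enter any droplet. Whether intronic reads were counted is not given in the sources used here. The 2024 counts were used for depth only.

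Cells were kept with at least 500 UMIs, 300 genes and at most 10% mitochondrial UMIs (3188 of 3214 barcodes). Scrublet in Scanpy 1.11.5 called 3 doublets (0.0941%), too few to have worked. No cell was removed, and an alternative left out the 6% with the highest scores (202 cells, 11 of them members). The shallowest member had 503 UMIs, so a gene at 1 UMI per cell is near the limit of detection.

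Gate genes were left out of comparisons. A gene was compared with at least 20 UMIs in total and 20 CPM in either set, and called at a log2 ratio of at least 1 or at most −1. A set with 0 UMIs was set to 3 counts over the group. Intervals are exact (Poisson, Clopper-Pearson or conditional binomial, SciPy 1.17.1). Python 3.11.15, NumPy 2.4.6 and pandas 2.3.3 were used, and the ratios were tested on simulated data. No p-values were computed.

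Members, the 32 gene lists and rules were chosen with earlier results of these data known, and the granulocyte-gene division was made after seeing the members' values. Of the listed symbols, Klrh1, Scart1 and Mx1 were not matched in the gene table. Against all other kept cells the 25 highest genes with at least 50 CPM in members and the 10 lowest with at least 200 CPM elsewhere are named. Against CD3 cells it is the 15 in each direction with at least 100 CPM, and in splits the 5. Ribosomal, mitochondrial, immunoglobulin and receptor segment genes and unnamed models were passed over. Genes of the lists are given as examples, and some are not reported here.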

Additional observations from a re-analysis of the deposited data

How the results depend on the processing

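No paired analysis was possible because gene values came from 1 library. The member share of 9.25% became 7.65% with at least 5 NK-gene UMIs, 5.75% with a stricter cell filter (1000 UMIs, 500 genes, 5% mitochondrial) and 8.0% when a UMI of Klrb1c, Ncr1 or Klre1 was also required. In place of 473 genes higher than in other kept cells, 825 were found when NK genes were gated as a share of UMIs, 310 with 10 CPM added, 1336 with a relaxed filter on low genes, 815 without granulocyte-gene members and 875 with the receptor UMI required. The 1062 lower genes became 1996 with the relaxed filter. Against CD3 cells, 459 higher and 1908 lower became 944 and 963 with median of ratios, and 1028 and 3274 with the relaxed filter. The thymocyte share of 0.0256% was 0.0201% at 5 NK-gene UMIs, 0.0202% with the stricter filter, 0.0351% with the share gate, 0.0345% as a mean of per-cell shares, 0.0210% without the 5 members with most such UMIs, 0.0356% without granulocyte-gene members and 0.0344% with the receptor UMI required. The Ly49 share of 72.4% was 33.3% when thinned to 2000 UMIs (27 members), 81.3% without granulocyte-gene members and 80.5% with the receptor UMI required. The 27 members include all 17 granulocyte-gene members, the shallowest of which had 2106 UMIs. Without thinning, 3 of those 17 had a Ly49 UMI, so the 33.3% describes a different mix of cells and not depth alone. These ratios turned round: with the share gate Prg2 (−2.35) and Prss34 (−0.10) against other cells and Wfdc21 (−0.45) against CD3 cells, and Elane and Wfdc21 without granulocyte-gene members (−1.31 and −5.57) and with the receptor UMI required (−1.21 and −1.66). Prg2, Prss34 and Elane had 0 UMIs in these members, so their values are upper bounds at 3 counts. With the share gate the interval of Wfdc21 (−1.05 to 0.12) and the upper limit of Prss34 (0.23) reach above 0, so their turn of sign is not shown. Leaving out granulocyte-gene members removes the cells that held these UMIs, and otherwise the cause was not tested. Of named ratios, 96 of 96 kept their sign with 10 CPM added, 84 of 93 with the share gate and 90 of 96 as means of per-cell CPM. Without granulocyte-gene members and with the receptor UMI required, 77 of 85 did in each. The totals of 93 and 85 leave out ratios that had no direction once 0 UMIs were set to 3 counts. A ratio is listed above as turned round only where its main log2 ratio was at least 1 in size. The last 2 settings were chosen after seeing the data. Depth limits all statements on genes with few UMIs per cell.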

Other observations

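Further values are given for genes that were high in the 278 NK-gene members, some of them outside the usual NK lists. Car2, a carbonic anhydrase that was listed here as an erythroid marker, gave 109 CPM in 29 cells against 4.46 CPM in the other kept cells, and no UMI in the 284 CD3 cells. It was the only erythroid gene with enough UMIs to compare. Samd3 gave 125 CPM against 0.12 in the other kept cells, where it had 1 UMI. Another 5 genes entered the 25 highest only when granulocyte-gene members were left out: Tmsb15a (log2 ratio 9.05), Phactr3 (7.32), Itga2 (6.90), Baiap3 (6.82) and Ifng (6.36). Itga2 encodes CD49b, the integrin that the DX5 antibody recognises on mouse NK cells.

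Transcripts of the T cell receptor delta locus were present at low levels. Trdc gave 75.7 CPM in NK-gene members, 1 UMI in each of 23 cells, against 13.9 CPM in the other kept cells and 142 in CD3 cells, and no UMI in C1q or granulocyte-gene cells. The variable segment Trdv4 gave 9 UMIs in 8 NK-gene members, 2 in all other kept cells and none in CD3 cells. Whether these transcripts are rearranged cannot be read from 3′ counts.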
